A study of Mus musculus with 16 samples.

Results

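RNA from injured mouse dorsal root ganglia was compared between the third and the first day after a sciatic nerve crush. The comparison takes the 4 libraries of injured ganglia at 72 h against the 4 libraries of injured ganglia at 24 h, 8 of the 16 libraries of the series. The other 8 libraries are naive ganglia of the same times, 4 at 72 h and 4 at 24 h, and serve as the measure of what differed between the times without a crush. Members were chosen by the condition and time in the sample labels, not by any measured value. The sciatic nerve was crushed on one side, and the lumbar ganglia L4 to L6, which hold the cell bodies of its sensory neurons, were dissociated with a Percoll density step before total RNA was taken. Each time had its own 4 mice, and injured and naive ganglia were collected from each animal. Strain, sex and age are not in the labels. The labels do not tie an injured library to the naive library of its animal, so libraries were compared unpaired. Time and library group coincide: every 72 h library belongs to one set of samples and every 24 h library to the other, so time after surgery and any difference in handling between the sets cannot be told apart in the injured libraries alone. Naive ganglia came from operated animals, so a response of the whole animal and a difference between the sample sets cannot be told apart in them. No statement of separate culture or extraction days is in the labels, and p-values weigh group differences against the spread between these libraries.

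A sensory neuron whose axon is crushed loses contact with its target and is known to change over days from a transmitting to a growing state. Injury transcription factors are induced early, growth cone and cytoskeletal proteins and injury neuropeptides accumulate, and genes of excitability and transmitter release decline. Macrophages and satellite glial cells around the cell bodies take part in this response. Bulk RNA of a dissociated ganglion holds all of these cells, so fewer cells of a type and less RNA per cell cannot be told apart for any gene below.

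Gene counts per library summed to 38530738 to 49717456 in injured 72 h, 32758978 to 43229939 in injured 24 h, 38358039 to 54980782 in naive 72 h and 41241516 to 56484541 in naive 24 h ganglia. Sensory neuron markers were at high levels throughout, for example Avil (advillin) at 1604 to 1740 CPM, read counts scaled to library size, in injured 72 h ganglia, 1414 to 1579 CPM in injured 24 h ganglia, 1629 to 1845 CPM in naive 72 h and 1612 to 1730 CPM in naive 24 h ganglia. Of 8 neuron markers, 2 were higher and 3 lower at 72 h in injured ganglia (62.5% called, against 15.7% of all tested genes). Of 20 pan-neuronal genes, 3 were higher and 9 lower (60% called), with a median log2 difference of -0.034. Injured libraries lay apart from naive ones on the first principal component, at 48.5 to 58.5 for 72 h and 8.6 to 31.9 for 24 h, against -44.9 to -30 for all naive libraries. The second component separated the times in both conditions, at 16.1 to 26.9 in injured 72 h against -49.4 to -20.8 in injured 24 h libraries, and at 13.7 to 39.1 in naive 72 h against -27.3 to 4.9 in naive 24 h libraries. More genes had at least 1 count at 72 h than at 24 h in naive ganglia, 23166 to 23623 against 21096 to 21849, while the injured libraries overlapped, with 22554 to 23017 genes at 72 h and 21507 to 22941 at 24 h. Replicate 1 of the injured 24 h group lay nearest to the naive libraries on the first component, at 8.6.

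**Figure D1:**
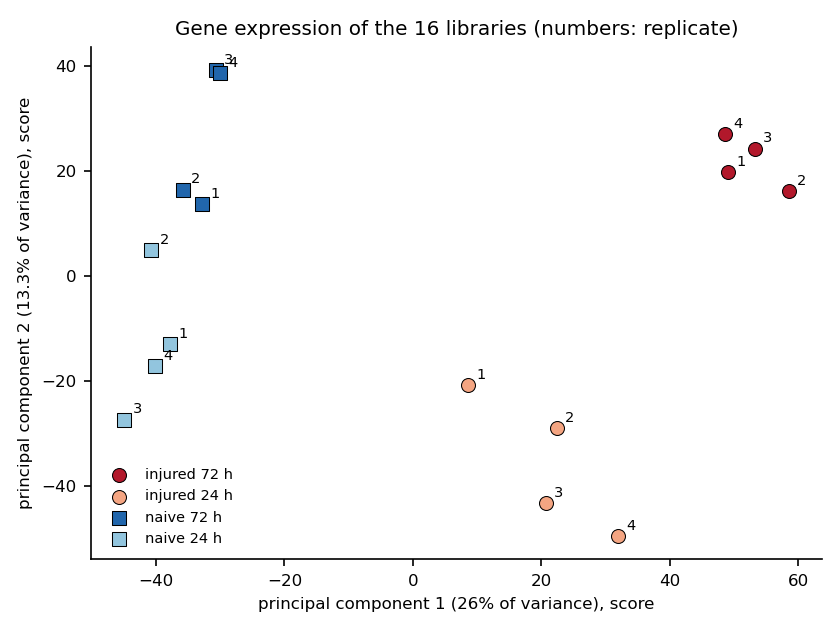
Scores of the 16 libraries on the first 2 principal components of log2 CPM over the tested genes, with the share of variance on each axis and the replicate number beside each point. Injured 72 h libraries lie farthest to the right, between 48.5 and 58.5, and the 72 h libraries lie above the 24 h libraries of their own condition on the second axis.

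Between the first and the third day 3001 of 19151 tested genes changed in injured ganglia, 15.7% of those tested, with 1497 higher at 72 h (7.82%) and 1504 lower (7.85%). Most shifts were modest: the median size of a called change was 0.401 on the log2 scale, 324 genes were at least 1 log2 unit higher and 121 at least 1 log2 unit lower. In naive ganglia the same comparison called 448 genes (2.34%), 308 higher (1.61%) and 140 lower (0.731%). The change over time differed between injured and naive ganglia for 1207 genes (6.3%), with 548 more positive (2.86%) and 659 more negative (3.44%) in injured ganglia. Of the 1497 genes higher in injured ganglia, 477 (31.9%) also passed this test of the difference in the same direction, and of the 1504 lower genes 532 (35.4%) did. The median changes in naive ganglia of all genes called in injured ganglia were 0.064 for the higher and -0.058 for the lower genes. For the remaining called genes a change particular to the injured side was not shown. The split of directions depended on scaling. An alternative scaled libraries by the summed counts of the 20 pan-neuronal genes. Of these genes, 3 were themselves called higher and 9 lower in injured ganglia with the scaling used here. With libraries scaled by pan-neuronal genes the median of all genes moved to 0.072 in injured and 0.139 in naive ganglia. Then 1489 genes were higher and 672 lower in injured ganglia, so 68.9% of the calls were higher, against 49.9% with the scaling used here. Naive ganglia then had 1054 higher and 17 lower genes, and the difference 223 more positive and 475 more negative genes. Naive counts also rested on single libraries: without replicate 3 of the naive 72 h group 129 genes were higher, and without replicate 2 of that group 25 were lower. Values below are CPM scaled by TMM (trimmed mean of M values) library sizes, changes are log2 fold changes of 72 h over 24 h from edgeR's quasi-likelihood test with their standard errors (SE). P-values are Benjamini-Hochberg adjusted over all 19151 genes with a threshold of 0.05. Libraries are given in the order of their replicate numbers.

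**Figure D2:**
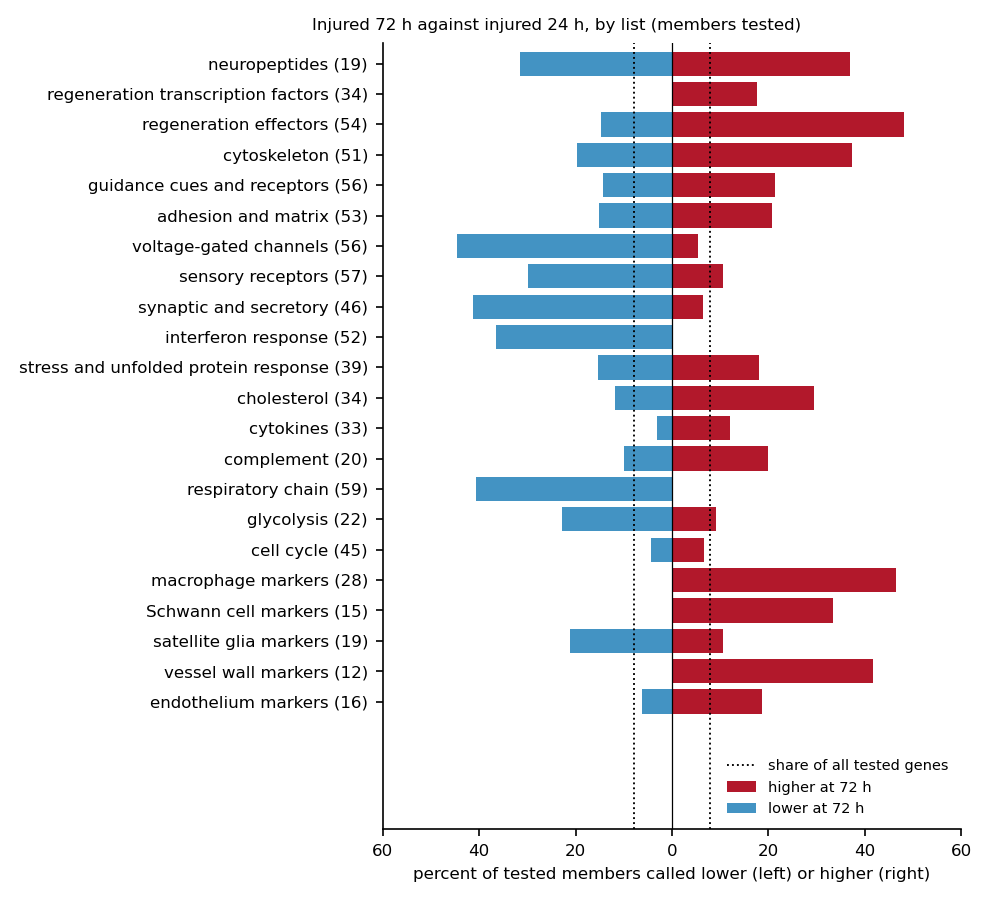
Percent of the tested members of 22 gene lists that were lower (bars to the left) or higher (bars to the right) in injured 72 h than in injured 24 h ganglia, with the number tested in brackets. Dotted lines mark 7.85% lower and 7.82% higher among all tested genes. Regeneration effectors and macrophage markers have the longest bars to the right, and voltage-gated channels the longest to the left.

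In the neuropeptide list, which also holds the receptor gene Sstr1 and the neurotrophic factor Bdnf, 7 of 19 tested members rose and 6 fell. This is a share of 68.4% called, against 15.7% of all genes. Those that rose include peptides known to be induced by axon injury. Nts, the precursor of neurotensin (ENSMUSG00000019890, chromosome 10, 102481756 to 102490486, minus strand, GRCm38), had 161, 185, 163 and 151 CPM in injured 72 h ganglia, against 17.5, 20.9, 19.1 and 24.7 CPM in injured 24 h ganglia. Its groups lay far apart, and naive ganglia stayed low at 5.14 to 6.76 CPM at 72 h and 3.97 to 7.82 CPM at 24 h. The change was 3.00 (SE 0.14, adjusted p = 8.45e-13), and it differed from that in naive ganglia by 2.95 (adjusted p = 2.94e-09). Gal, the precursor of galanin, an inhibitory peptide of injured sensory neurons, had 96.2, 120.1, 102 and 98.8 CPM in injured 72 h ganglia, against 10.8, 30.02, 23.7 and 26.8 CPM in injured 24 h ganglia. Replicate 1 was the lowest of the 24 h libraries, and even the highest of them lay well below every 72 h library (2.19, SE 0.18, adjusted p = 9.88e-09). Npy, which encodes neuropeptide Y, rose by 2.53 (SE 0.27, adjusted p = 5.53e-07), to 119.8 ± 17.9 CPM at 72 h, against 20.7 ± 8.305 CPM at 24 h (SD, n = 4 each). For Npy the difference from the naive change was 2.01 and missed the threshold (adjusted p = 0.0591), with naive libraries at 0.341 to 1.18 CPM at 72 h and 0.0241 to 1.02 CPM at 24 h. Crh, corticotropin-releasing hormone, was scarce but rose to 4.25, 7.34, 5.11 and 6.42 CPM in injured 72 h ganglia, against 0.254, 1.42, 0.339 and 1.79 CPM in injured 24 h ganglia (2.58, adjusted p = 0.00069). The remaining 3 that rose, named after their values were seen, were Penk, the enkephalin precursor (1.06, adjusted p = 0.00404), Ucn, urocortin, at 1.33 to 2.21 CPM in injured 72 h ganglia, against 0 to 0.308 CPM in injured 24 h ganglia, and Sstr1, a somatostatin receptor (0.80, adjusted p = 0.0395).

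Other members of this list were lower on the third day. Bdnf, brain-derived neurotrophic factor, had 78.5, 102, 82.8 and 89.04 CPM in injured 72 h ganglia, against 128, 142, 136 and 157 CPM in injured 24 h ganglia. Naive ganglia had 41.2 to 49.9 CPM at 72 h and 39.3 to 43.8 CPM at 24 h. All injured 72 h libraries lay between the naive libraries and the injured 24 h libraries. The change of -0.68 (adjusted p = 1.22e-06) differed from the naive change by -0.83 (adjusted p = 4.39e-05). Adcyap1, the precursor of the peptide PACAP, showed the same order of group means, 220.2 ± 18.1 CPM in injured 72 h and 326 ± 51.7 CPM in injured 24 h ganglia, against 87.3 ± 11 CPM in naive 72 h and 81.1 ± 9.68 CPM in naive 24 h ganglia (SD, n = 4 each), a log2 change of -0.57 (adjusted p = 0.000326). Vip, which encodes vasoactive intestinal peptide, stayed under 1 CPM, with 0.1297 to 0.295 CPM in injured 72 h and 0.0308 to 0.8002 CPM in injured 24 h ganglia, and was not called (adjusted p = 0.707). Cck, the precursor of cholecystokinin, was as low and was not called either (adjusted p = 0.677). When library scaling rested on pan-neuronal genes, 6 members of the list rose and 3 fell.

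Of the injury-responsive transcription factors, the early layer of the response, 6 of 34 tested rose and none fell, a share of 17.6% called that is near the 15.7% of all genes, and the median change was 0.030, against 0.008 over all tested genes. Sox11, a factor needed for axon growth of embryonic and injured neurons, had 196, 244, 204 and 194 CPM in injured 72 h ganglia, against 115, 143, 146 and 153 CPM in injured 24 h ganglia, a change of 0.59 (SE 0.08, adjusted p = 2.21e-05). Its naive value of 0.29 did not pass (adjusted p = 0.0848), and neither did the difference of 0.30 between the changes (adjusted p = 0.172). Naive ganglia had 22.9 to 25.4 CPM at 72 h and 17.9 to 22.4 CPM at 24 h, and both injured groups lay far above them. Atf3, the classical marker of axotomized neurons, which was named after its values were seen, had 556, 699.7, 642 and 618 CPM in injured 72 h ganglia, against 418, 520.4, 529 and 569.9 CPM in injured 24 h ganglia. Its change was 0.30 (adjusted p = 0.019), its groups overlapped, and both lay above the naive range of 101 to 117 CPM at 72 h. Smad1, which carries bone morphogenetic protein signals, rose by 0.35 (adjusted p = 0.000367), and Sox4 by 0.52 (adjusted p = 0.00115). For Sox4 the difference from the naive change missed the threshold (adjusted p = 0.062). Sox4, a factor related to Sox11, averaged 63.96 ± 6.13 CPM in injured 72 h ganglia, against 44.8 ± 7.699 CPM in injured 24 h ganglia (SD, n = 4 each). Lmo7, which encodes a LIM domain protein, stood out in this list with 179, 212, 190.4 and 195 CPM in injured 72 h ganglia, against 26.2, 63.8, 45.5 and 71.8 CPM in injured 24 h ganglia (1.90, SE 0.18, adjusted p = 8.57e-08). No factor fell in the quasi-likelihood fit, but 2 did without replicate 1 of the injured 24 h group and 2 did by DESeq2, and 5 were lower at an unadjusted p under 0.05.

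The regeneration-associated effectors are proteins of the growth state itself. Of 54 tested, 26 were higher and 8 lower at 72 h, a share of 63.0% called against 15.7% of all genes. The median change was 0.233 in injured and 0.043 in naive ganglia. This list and the others were chosen with earlier results of these data known, so their shares are descriptions and not independent tests. Car3, a carbonic anhydrase (ENSMUSG00000027559, chromosome 3, 14863512 to 14872523, plus strand), had the largest change of the named genes, with 89.6, 124, 112 and 102 CPM in injured 72 h ganglia, against 5.19, 7.01, 6.81 and 8.46 CPM in injured 24 h ganglia. The naive libraries held 1.54 to 2.82 CPM at 72 h and 2.296 to 3.38 CPM at 24 h, so the injured 24 h libraries already lay above naive and the 72 h libraries far above both. The change was 3.96 (SE 0.15, adjusted p = 6.68e-14) and its difference from naive 4.14 (adjusted p = 1.76e-10). Sprr1a, a small proline-rich protein found in regenerating axons, had 269, 310.5, 242 and 208 CPM in injured 72 h ganglia, against 7.89, 22.5, 15.1 and 22.6 CPM in injured 24 h ganglia (3.91, SE 0.24, adjusted p = 1.3e-10). It was nearly absent from naive ganglia, at 0.127 to 0.659 CPM at 72 h and 0 to 0.371 CPM at 24 h, and the difference from the naive change missed the threshold (adjusted p = 0.111). Ecel1, a membrane endopeptidase induced in damaged neurons, had 37.3, 35.7, 32.7 and 28.3 CPM in injured 72 h ganglia, against 1.18, 4.86, 4.16 and 5.09 CPM in injured 24 h ganglia, where replicate 1 was by far the lowest. With that replicate left out 25 effectors were higher.

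Gap43, the growth cone protein (ENSMUSG00000047261, chromosome 16, 42248442 to 42340651, minus strand), had 578, 645, 586 and 562 CPM in injured 72 h ganglia, against 168, 245, 224 and 249.6 CPM in injured 24 h ganglia. Its naive ranges were 186 to 238 CPM at 72 h and 166 to 181 CPM at 24 h. Replicate 1 of the injured 24 h group lay within the naive 24 h range and the other 3 above it. Injured exceeded naive ganglia by 1.48 at 72 h (adjusted p = 1.52e-11) and by 0.34 at 24 h (adjusted p = 0.0106). The change was 1.42 (SE 0.09, adjusted p = 3e-10), 1.14 more than in naive ganglia (adjusted p = 5.44e-06). Cacna2d1, the calcium channel subunit that binds gabapentin, had 1225, 1513, 1272 and 1333 CPM in injured 72 h ganglia, against 558, 593, 561 and 554 CPM in injured 24 h ganglia (1.24, SE 0.06, adjusted p = 4.71e-12). The 8 effectors that fell include Procr and Timp1, described with the genes of the first day.

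**Figure D3:**
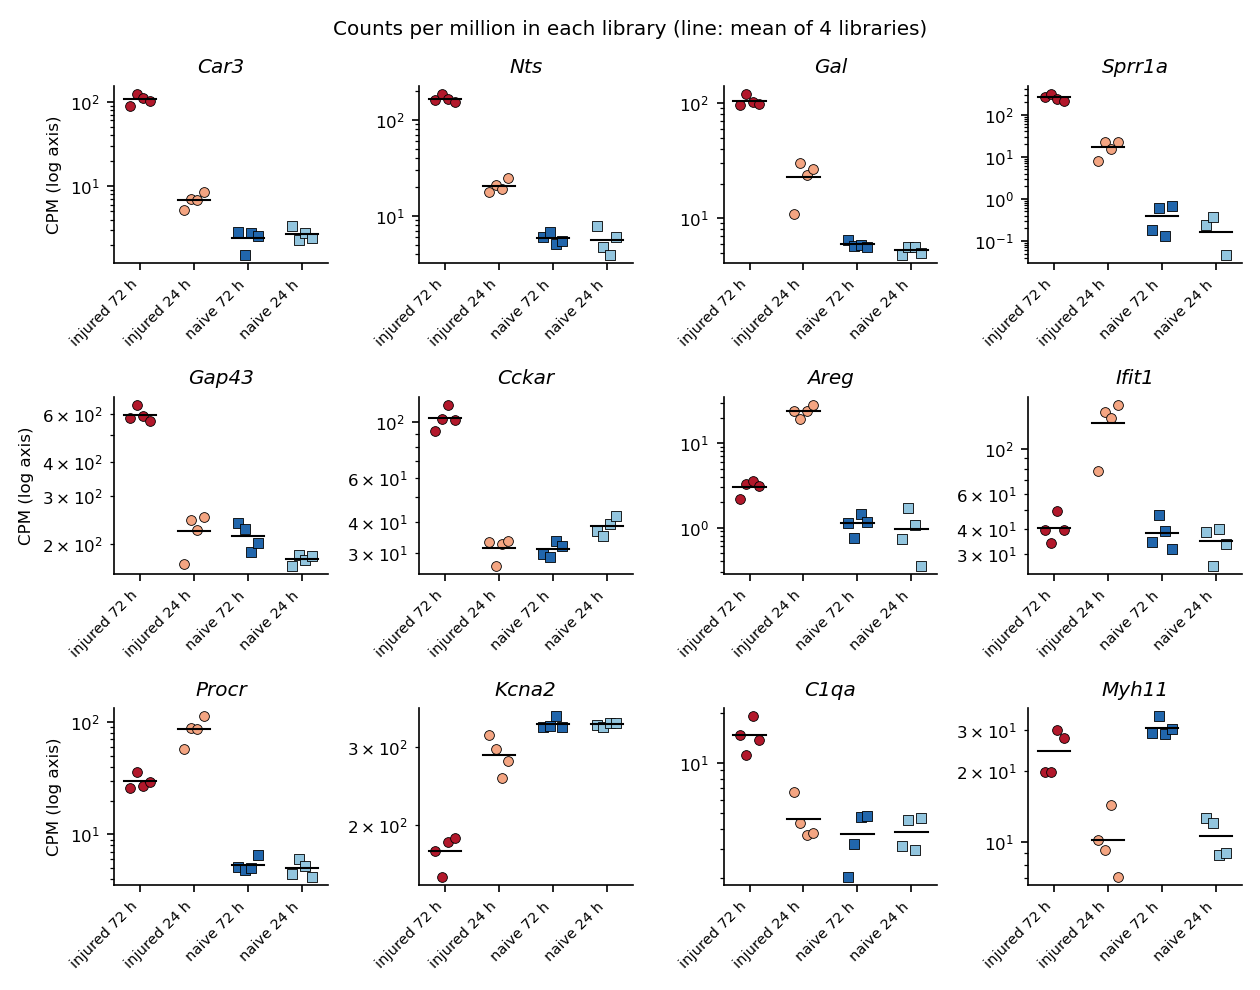
CPM (log axis) of 12 named genes in each of the 16 libraries, by group, with the mean of 4 libraries as a line; the naive 24 h library at 0 for Sprr1a cannot be drawn on this axis. Car3, Nts, Gal, Sprr1a, Gap43 and Cckar are highest in injured 72 h ganglia, Areg, Ifit1 and Procr in injured 24 h ganglia, and Myh11 is higher at 72 h in both conditions.

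Beyond these lists, the largest rises were in genes of varied roles. Wfdc3, a member of the whey acidic protein family of protease inhibitors, had 14.9, 17.9, 15.4 and 13.9 CPM in injured 72 h ganglia, against 1.27, 2.08, 1.23 and 2.304 CPM in injured 24 h ganglia (3.16, adjusted p = 8.83e-09). Slc6a4, the serotonin transporter, reached 27.2 ± 3.85 CPM in injured 72 h ganglia, against 3.52 ± 1.48 CPM in injured 24 h ganglia (SD, n = 4 each), and stayed at or under 0.121 ± 0.0774 CPM on average in naive groups. For Slc6a4 the difference from the naive change missed the threshold (adjusted p = 0.296). Acvr1c, a type I receptor of activins and nodal, and Loxl2, a lysyl oxidase that crosslinks collagen, rose by 2.65 (adjusted p = 4.49e-08) and 2.52 (adjusted p = 5.2e-08). Cckbr, a cholecystokinin receptor, had 24.4, 31.1, 31.2 and 26.9 CPM in injured 72 h ganglia, against 2.26, 8.58, 5.08 and 5.48 CPM in injured 24 h ganglia (2.40, adjusted p = 5.57e-07). Naive libraries held 0.117 to 0.427 CPM at 72 h and 0 to 0.0353 CPM at 24 h. The naive change was called too (adjusted p = 0.0328) and the difference between the changes was not (adjusted p = 0.511).

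Some genes had hardly left their naive level on the first day. Trp53i11, which encodes a p53-inducible protein, had 22.4, 23.4, 23.4 and 20.4 CPM in injured 72 h ganglia, against 2.88, 3.34, 3.58 and 3.42 CPM in injured 24 h ganglia. The injured 24 h values lay among the naive ones, at 2.58 to 3.63 CPM at 72 h and 1.16 to 3.76 CPM at 24 h. Draxin, a secreted axon guidance protein, was alike, with 14.1, 14.6, 11.5 and 12.04 CPM in injured 72 h ganglia, against 0.9305, 2.65, 2.34 and 1.92 CPM in injured 24 h ganglia and 1.98 to 2.35 CPM in naive 72 h ganglia. The log2 change over time was 2.76 for Trp53i11 (adjusted p = 4.11e-09) and 2.73 for Draxin (adjusted p = 1.72e-07). Side by side, the log2 difference of injured from naive ganglia was 2.75 at 72 h and 0.26 at 24 h for Trp53i11, and 2.59 at 72 h and 0.09 at 24 h for Draxin. These comparisons share the injured libraries with the time comparison.

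Cytoskeletal genes divided, with 19 of 51 tested higher and 10 lower at 72 h (56.9% called, against 15.7% of all genes). Some, such as Gap43 and Tubb2b, are also on the effector list. Tubb2b, a neuronal beta-tubulin, had 627, 646, 616 and 613 CPM in injured 72 h ganglia, against 276, 371, 392 and 407 CPM in injured 24 h ganglia (0.79, adjusted p = 4.64e-07). Stmn2, which keeps microtubules dynamic in growing axons, reached 2316 ± 229 CPM in injured 72 h ganglia, against 1564 ± 61.7 CPM in injured 24 h ganglia (SD, n = 4 each), a change of 0.57 (adjusted p = 3.25e-07). Marcks, which binds actin at the membrane, rose by 0.68 (adjusted p = 1.42e-06), and Tubb3, the pan-neuronal beta-tubulin, by 0.40 (adjusted p = 0.000794). The 10 that fell included the neurofilament genes Nefl, Nefm and Nefh, the filaments of mature thick axons, with changes of -0.26, -0.58 and -0.44 (adjusted p = 0.0378, 8.34e-05 and 0.00132), and the groups of Nefl overlapped. In naive ganglia Nefl had 5060 to 5710 CPM at 72 h and 5590 to 7890 CPM at 24 h. The naive ranges were 715 to 785 and 739 to 990 CPM for Nefm, and 3520 to 3860 and 3300 to 4760 CPM for Nefh. No gene of the pan-neuronal list, which holds these neurofilament genes, was called in naive ganglia. Gfap, the intermediate filament of reactive glia, was in this list too and had 0.701, 0.574, 0.644 and 0.821 CPM in injured 72 h ganglia, against 2.82, 5.19, 2.897 and 4.66 CPM in injured 24 h ganglia (-2.50, adjusted p = 0.00121). The neurofilament genes and Gfap were named after their values were seen.

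Among axon guidance ligands and receptors, 12 of 56 tested rose and 8 fell (35.7% called, against 15.7% of all genes). Sema3c, a secreted semaphorin, had 64.2, 72.3, 66.8 and 69.4 CPM in injured 72 h ganglia, against 33.02, 35.6, 35.2 and 30.7 CPM in injured 24 h ganglia (1.02, SE 0.07, adjusted p = 8.47e-10). Its naive ranges were 29.3 to 34.4 CPM at 72 h and 26.4 to 28.5 CPM at 24 h. Every injured library lay above the naive libraries of its time, and the groups differed by 1.07 at 72 h and 0.31 at 24 h (adjusted p = 0.00261 at 24 h). Sema4f, a membrane semaphorin, and Flrt2, an adhesion protein that binds latrophilins and Unc5 receptors, rose by 0.62 (adjusted p = 5.71e-07) and 0.82 (adjusted p = 1.57e-06). Sema7a, a membrane-anchored semaphorin known to promote axon growth, fell by 0.58 (adjusted p = 1.86e-05). Without replicate 2 of the injured 72 h group 5 members fell, as with pan-neuronal scaling. Collagen, laminin and integrin genes also divided, with 11 of 53 higher and 8 lower (35.8% called).

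Genes of excitability were lower or not called, with few exceptions. Of 56 tested voltage-gated and background channel genes, 25 were lower and 3 higher at 72 h (50% called, against 15.7% of all genes). The median change was -0.140 in injured and 0.080 in naive ganglia, and 21 were more negative and 2 more positive in the test of the difference. The channel gene with the smallest p over time was Cacna2d1, described with the effectors, and it rose (1.24, adjusted p = 4.71e-12). Kcna2, an axonal potassium channel (ENSMUSG00000040724, chromosome 3, 107101146 to 107115005, plus strand), had 175, 154, 183 and 188 CPM in injured 72 h ganglia, against 318, 296, 255 and 278 CPM in injured 24 h ganglia. The injured 24 h libraries lay below the naive ranges of 332 to 351 CPM at 72 h and 333 to 339 CPM at 24 h, and the injured 72 h libraries lay below all of them. The change was -0.71 (SE 0.06, adjusted p = 2.85e-08) and differed from naive by -0.72 (adjusted p = 1.61e-05). Scn10a, the sodium channel Nav1.8 of nociceptors, had 577, 501, 489 and 499.9 CPM in injured 72 h ganglia, against 732, 723, 767 and 654 CPM in injured 24 h ganglia (-0.48, adjusted p = 3.1e-05). Scn8a, the sodium channel of nodes of Ranvier, and Scn4b, a sodium channel beta subunit, fell by 0.55 (adjusted p = 9.6e-07) and 0.46 (adjusted p = 1.85e-07). Scn8a averaged 257 ± 16.3 CPM in injured 24 h ganglia and 253 ± 13.9 CPM in naive 24 h ganglia (SD, n = 4 each), so it was near its naive level on the first day. With any single library left out 19 to 25 channel genes were lower, and 18 with pan-neuronal scaling.

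Sensory transduction and identity genes followed with 17 of 57 lower and 6 higher (40.4% called, against 15.7% of all genes). Trpa1, the channel that responds to irritants, had 70.1, 58.2, 46.2 and 60.9 CPM in injured 72 h ganglia, against 108, 97.4, 109.8 and 87.2 CPM in injured 24 h ganglia (-0.77, adjusted p = 2.06e-06). Of those that rose, Cckar, another cholecystokinin receptor, had 92.7, 103, 117 and 102 CPM in injured 72 h ganglia, against 33.3, 26.7, 32.5 and 33.5 CPM in injured 24 h ganglia. Naive ganglia had 28.8 to 33.5 CPM at 72 h and 35.1 to 42.3 CPM at 24 h. The injured 72 h libraries lay above all others, and the injured 24 h libraries lay below the naive 24 h ones, by -0.28 (adjusted p = 0.0214). The change over time was 1.72 (SE 0.09, adjusted p = 3.46e-12) and differed from naive by 2.03 (adjusted p = 2.66e-10). Gabrg1, a subunit of the GABA-A receptor, averaged 161 ± 22 CPM in injured 72 h ganglia, against 64.8 ± 5.77 CPM in injured 24 h ganglia (SD, n = 4 each). It averaged 48.9 ± 4.18 CPM in naive 72 h ganglia, against 60.7 ± 4.26 CPM in naive 24 h ganglia. Its change was 1.31 in injured ganglia (adjusted p = 4.3e-10), and the value in naive ganglia was -0.31 (adjusted p = 0.0578). Gfra3, the receptor of artemin, rose by 0.78 (adjusted p = 4.45e-06). The number of lower members depended on scaling and on 1 library: 11 fell without replicate 2 of the injured 72 h group, and 7 fell beside 6 that rose with pan-neuronal scaling.

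Genes of synaptic vesicles and release were lower as well, 19 of 46 against 3 higher (47.8% called, against 15.7% of all genes). The median change was -0.137 in injured and 0.074 in naive ganglia. Rph3a, a Rab3 effector on vesicles, had 77.1, 71.8, 73.5 and 67.02 CPM in injured 72 h ganglia, against 123, 126, 114 and 118 CPM in injured 24 h ganglia. Naive ganglia had 133 to 146 CPM at 72 h and 121 to 129 CPM at 24 h. The injured 24 h libraries overlapped the naive 24 h ones, and the change of -0.73 (adjusted p = 1.97e-09) differed from naive by -0.89 (adjusted p = 6.69e-08). Snap25, a core protein of the fusion machinery, had 1660, 1732, 1831 and 1869 CPM in injured 72 h ganglia, against 2598, 2612, 2474 and 2637 CPM in injured 24 h ganglia (-0.54, adjusted p = 2.01e-07). Vamp1 and Rab3a, a vesicle SNARE and a vesicle GTPase, fell by 0.76 and 0.53 in injured ganglia and by 0.32 (adjusted p = 0.0143) and 0.25 (adjusted p = 0.0207) in naive ganglia. With pan-neuronal scaling 11 members fell and 2 rose, and 1 rose without replicate 1 of the injured 72 h group.

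A separate group of genes was high on the first day and had come down by the third. Areg, the EGF receptor ligand amphiregulin (ENSMUSG00000029378, chromosome 5, 91139599 to 91148432, plus strand), had 2.18, 3.26, 3.56 and 3.16 CPM in injured 72 h ganglia, against 23.9, 19.4, 24.3 and 28.4 CPM in injured 24 h ganglia. Naive ganglia held 0.747 to 1.45 CPM at 72 h and 0.354 to 1.696 CPM at 24 h, and the injured 72 h libraries remained above every naive library. The change of -2.98 (SE 0.25, adjusted p = 1.9e-08) was the largest fall among named genes. Procr, the endothelial protein C receptor, had 25.97, 35.7, 27.2 and 29.5 CPM in injured 72 h ganglia, against 57.1, 88.1, 86.2 and 112 CPM in injured 24 h ganglia (-1.54, SE 0.15, adjusted p = 1.59e-07), with 4.799 to 6.57 CPM in naive 72 h and 4.22 to 6.11 CPM in naive 24 h ganglia. Timp1, an inhibitor of matrix metalloproteinases, fell by 1.78 (adjusted p = 0.000295) and Steap1, a metalloreductase, by 1.21 (adjusted p = 0.0127). For Timp1 and Steap1 the difference from the naive change missed the threshold (adjusted p = 0.165 and 0.1535). Scai, a suppressor of the MRTF coactivators, and Ugdh, which makes UDP-glucuronate for matrix polysaccharides, were among the 4 most negative differences from naive by p, with changes of -0.72 and -0.71 (adjusted p = 3.59e-08 and 9.73e-08).

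Some falls reached or passed the naive range. Casr, the calcium-sensing receptor, had 5.01, 2.15, 2.01 and 2.27 CPM in injured 72 h ganglia, against 8.403, 8.15, 7.49 and 9.68 CPM in injured 24 h ganglia and 2.99 to 4.26 CPM in naive 72 h ganglia, with replicate 1 the highest of the injured 72 h libraries. A2m, the protease inhibitor alpha-2-macroglobulin, fell by 1.28 (adjusted p = 1.86e-06), to 7.32 to 8.89 CPM in injured 72 h ganglia, below the naive 72 h range of 9.94 to 13.7 CPM. For Serpina3c, a serine protease inhibitor, and Olfr920, an olfactory receptor gene, naive ganglia moved the same way: Serpina3c changed by -1.73 in injured and -0.81 in naive ganglia (adjusted p = 0.0397 in naive), and Olfr920 by -1.93 and -0.91 (adjusted p = 0.0427 in naive). Neither difference of changes passed (adjusted p = 0.0676 and 0.071), and both belong to multigene families whose near-identical copies can share reads. Myo5b, an unconventional myosin, fell by 1.58 in injured ganglia (adjusted p = 7.81e-05) and its naive value of -0.60 did not pass (adjusted p = 0.185). For Myo5b the difference between the changes did not pass either (adjusted p = 0.101).

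**Figure D4:**
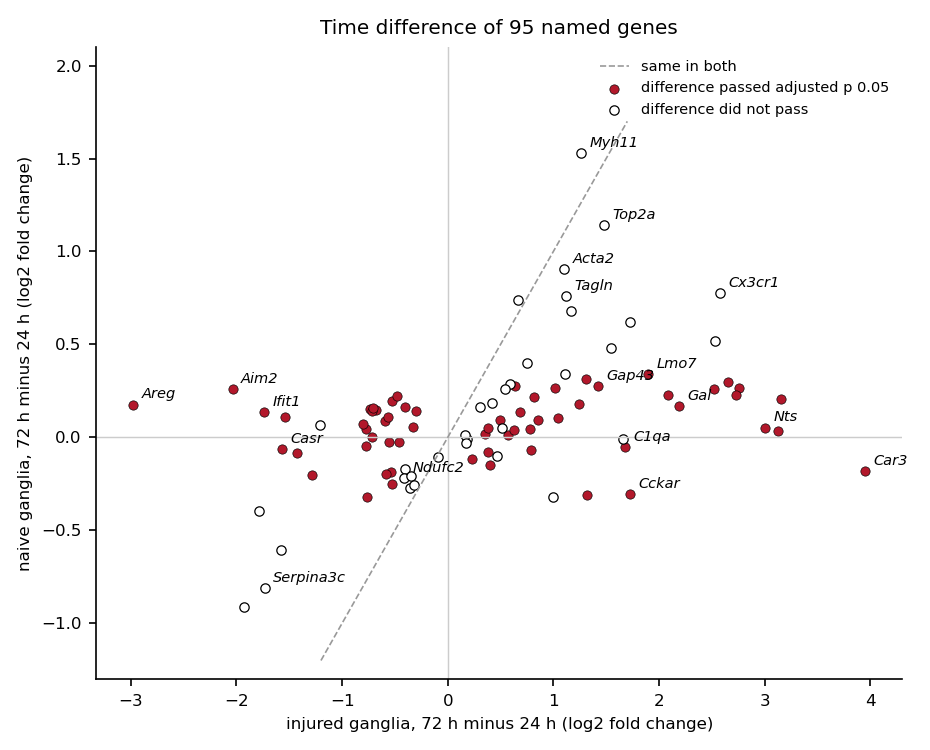
Log2 change of 72 h over 24 h in injured ganglia (horizontal axis) and in naive ganglia (vertical axis) for 95 named genes; filled points passed the test of the difference between the changes, and the dashed line marks equal change. The 6 named genes with a mean under 10 counts in a naive group are left out. Car3, Nts, Areg and Ifit1 lie near zero on the naive axis, while Myh11, Acta2 and Tagln lie near the dashed line.

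The interferon response and the cytosolic RNA sensors showed the same course. Of 52 tested members 19 fell and none rose (36.5% called, against 15.7% of all genes), with a median change of -0.374 in injured and 0.230 in naive ganglia, and 25 were more negative and none more positive in the test of the difference. At an unadjusted p under 0.05, 31 were lower and 2 higher, and DESeq2 also called none higher. The genes of this list are classically switched on through a promoter element of 2 GAAA blocks, bound by a complex that holds Stat2 and Irf9. Windows of 100 bases from the promoters of 6 members that fell are shown because they hold this element, here searched as GAAA, any 2 bases (NN) and a second GAAA on either strand, which is marked in capitals. They are RefSeq sequences on GRCm38.p6, 5′ to 3′ along the gene's strand, at chr19:34640740-34640839 (plus) for Ifit1, chr4:40239776-40239875 (minus) for Ddx58, chr10:128270248-128270347 (plus) for Stat2, chr3:142530238-142530337 (plus) for Gbp7, chr2:62646206-62646305 (minus) for Ifih1 and chr17:78882523-78882622 (minus) for Eif2ak2.
Ifit1: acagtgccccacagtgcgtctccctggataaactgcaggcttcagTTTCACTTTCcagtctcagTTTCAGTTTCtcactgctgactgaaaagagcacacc
Ddx58: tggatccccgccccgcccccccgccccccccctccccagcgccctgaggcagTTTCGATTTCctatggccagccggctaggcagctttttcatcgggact
Stat2: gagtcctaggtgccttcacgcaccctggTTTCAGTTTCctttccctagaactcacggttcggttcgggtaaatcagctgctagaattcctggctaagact
Gbp7: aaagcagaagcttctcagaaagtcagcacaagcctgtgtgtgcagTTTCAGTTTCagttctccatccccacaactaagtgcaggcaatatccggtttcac
Ifih1: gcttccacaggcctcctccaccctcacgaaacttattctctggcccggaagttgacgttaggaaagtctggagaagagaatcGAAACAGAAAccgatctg
Eif2ak2: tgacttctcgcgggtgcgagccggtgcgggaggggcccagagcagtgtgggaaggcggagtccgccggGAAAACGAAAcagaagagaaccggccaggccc
The element was present in the promoter (250 bases before to 50 after the start) of 18 of the 40 list members in the RefSeq table (45%), against 1079 of all 27025 promoter genes (3.99%). It was held by 7 of the 15 members that fell and by 11 of the 25 that were not called. A match of letters does not show that a factor is bound there.

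Ifit1, an antiviral protein that binds foreign RNA (ENSMUSG00000034459, chromosome 19, 34640871 to 34650009, plus strand), had 39.6, 34.1, 49.01 and 39.5 CPM in injured 72 h ganglia, against 78.1, 153, 142 and 166 CPM in injured 24 h ganglia. Replicate 1 was the lowest of the 24 h libraries, the 72 h libraries lay within 34.1 to 49.01 CPM, and the naive libraries had 31.9 to 46.8 CPM at 72 h and 26.3 to 40.03 CPM at 24 h. The change was -1.74 (SE 0.17, adjusted p = 2.16e-07) and its difference from naive -1.87 (adjusted p = 3.61e-05). Ddx58, the RNA sensor RIG-I, had 40.6, 35.3, 40.6 and 36.5 CPM in injured 72 h ganglia, against 61.8, 64.6, 61.6 and 72.5 CPM in injured 24 h ganglia and 39.8 to 48.4 CPM in naive 72 h ganglia (-0.77, adjusted p = 3.71e-07). Stat2, the signal transducer of type I interferons, had 78.02, 79.3, 80.2 and 69.7 CPM in injured 72 h ganglia, against 106, 113, 110.3 and 115 CPM in injured 24 h ganglia, and changed by -0.53 (adjusted p = 6.19e-07), against a naive value of 0.20 that did not pass (adjusted p = 0.0703). Dtx3l, a ubiquitin ligase of the interferon response, fell by 0.80 (adjusted p = 1.59e-07). Aim2, a sensor of cytosolic DNA and one of the 12 largest falls, had 2.44, 2.95, 3.46 and 2.36 CPM in injured 72 h ganglia, against 7.08, 14.1, 11.1 and 13.6 CPM in injured 24 h ganglia (-2.03, adjusted p = 0.000391). Leaving out any 1 library left 15 to 25 members lower, and 1 was higher without replicate 2 of the injured 24 h or replicate 1 of the injured 72 h group.

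**Figure D5:**
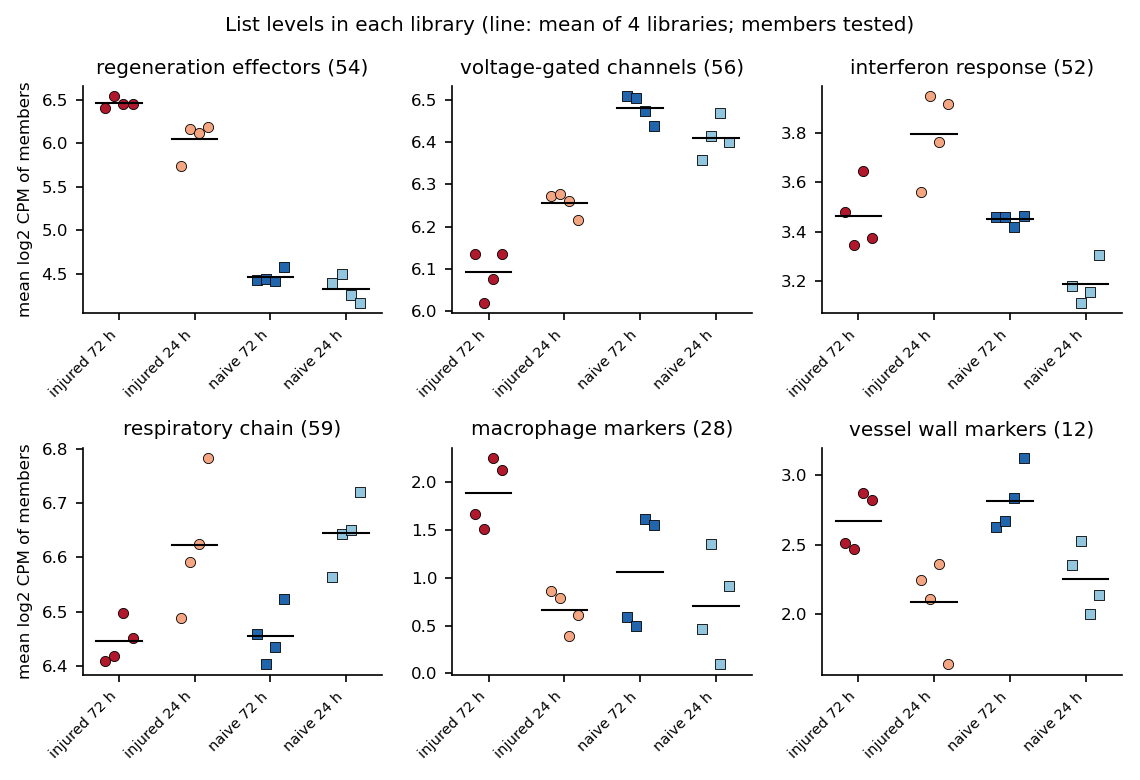
Mean log2 CPM over the tested members of 6 gene lists in each of the 16 libraries, with the mean of 4 libraries as a line. Interferon genes are highest on average in injured 24 h ganglia, voltage-gated channels are lowest in injured 72 h ganglia, and on average respiratory chain genes are lower and vessel wall markers higher at 72 h in both injured and naive ganglia.

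Stress and supply pathways showed mixed changes. Among 39 tested genes of the integrated stress response and of protein folding in the endoplasmic reticulum, 7 rose and 6 fell. This is a share of 33.3% called, against 15.7% of all genes. Those that rose include Atf4, the transcription factor of the integrated stress response, and genes of amino acid supply that it is known to drive. Atf4 changed by 0.30 (adjusted p = 0.00164), Slc7a5, an amino acid transporter, by 0.63 (adjusted p = 1.2e-06) and Asns, asparagine synthetase, by 0.23 (adjusted p = 0.00193). Slc7a5 was also called higher in naive ganglia (0.28, adjusted p = 0.0421). The naive values of Atf4, 0.16, and Asns, -0.12, did not pass (adjusted p = 0.174 and 0.236). For Atf4 the difference between the changes did not pass either (adjusted p = 0.467). Slc7a5 averaged 62.8 ± 5.93 CPM in injured 72 h ganglia, against 40.5 ± 1.84 CPM in injured 24 h ganglia (SD, n = 4 each). Dnajb9, a chaperone of the endoplasmic reticulum, fell by 0.40 (adjusted p = 0.000982), as did the chaperone genes Hspa5 (-0.23, adjusted p = 0.00416) and Hsp90b1 (-0.18, adjusted p = 0.031), both named after their values were seen. For Dnajb9 the difference from the naive change did not pass (adjusted p = 0.273). Without replicate 3 of the injured 24 h group 4 genes rose and 3 fell, without replicate 2 of the injured 72 h group 4 rose, and with pan-neuronal scaling 1 fell. The amino acid response element, searched as TGATGNAAN on both strands, was in the promoters of 7 of 33 list members (21.2%), against 4.5% of all promoter genes. Of the members with a promoter sequence, it was held by 2 of 5 that rose, 0 of 5 that fell and 5 of 23 not called.

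Cholesterol genes rose in 10 of 34 cases and fell in 4 (41.2% called, against 15.7% of all genes), and none fell with pan-neuronal scaling. Hsd17b7, an enzyme of the late synthesis pathway, had 210.2, 277, 249 and 253 CPM in injured 72 h ganglia, against 97.9, 126, 122 and 133 CPM in injured 24 h ganglia (1.05, SE 0.08, adjusted p = 9.58e-09). Abca1, which exports cholesterol, had 407, 518, 491 and 473 CPM in injured 72 h ganglia, against 227, 295, 243 and 281 CPM in injured 24 h ganglia (0.85, adjusted p = 1.59e-07). Hmgcs1, an early enzyme of the pathway, and Insig1, its feedback inhibitor, rose by 0.42 (adjusted p = 3.74e-06) and 0.38 (adjusted p = 3.54e-05). For Hmgcs1 the difference from the naive change missed the threshold (adjusted p = 0.0607). A sterol element, searched as TCACNCCAC on both strands, was in 1 of 22 list promoters (4.55%), against 1.44% of all.

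Markers of macrophages were higher on the third day in injured ganglia: 13 of 28 rose and none fell (46.4% called, against 15.7% of all genes). The median change was 1.114 in injured and 0.222 in naive ganglia, and 4 were more positive in the test of the difference. At an unadjusted p under 0.05, 20 were higher and 0 lower. C1qa, a complement subunit made by macrophages, had 14.7, 11.2, 19.2 and 13.8 CPM in injured 72 h ganglia, against 6.68, 4.33, 3.64 and 3.76 CPM in injured 24 h ganglia, 2.05 to 4.79 CPM in naive 72 h and 2.99 to 4.65 CPM in naive 24 h ganglia. The injured 72 h libraries lay above all others (1.68, SE 0.24, adjusted p = 2.45e-05, difference from naive 1.73, adjusted p = 0.00238). Csf1r, the receptor that keeps macrophages alive, had 8.74, 8.14, 11.8 and 11.03 CPM in injured 72 h ganglia, against 2.59, 2.701, 1.36 and 2.67 CPM in injured 24 h ganglia (2.08, adjusted p = 3.08e-05). Cx3cr1, the fractalkine receptor, and Ctss, cathepsin S, rose by 2.58 (adjusted p = 0.000109) and 1.55 (adjusted p = 0.000284). For Cx3cr1 and Ctss the difference from the naive change missed the threshold (adjusted p = 0.0719 and 0.112). The summed level of the list was 134.7 to 224 CPM in injured 72 h, 78.1 to 95.8 CPM in injured 24 h, 80.9 to 197 CPM in naive 72 h and 62.9 to 151 CPM in naive 24 h ganglia, so naive libraries varied widely. Without replicate 3 of the injured 72 h group 8 markers rose, and 20 did in a fit of the 8 injured libraries alone.

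Csf1, the ligand of Csf1r that injured sensory neurons are known to make, had 134, 156, 132 and 116 CPM in injured 72 h ganglia, against 49.3, 93.2, 85.1 and 92.2 CPM in injured 24 h ganglia. Replicate 1 was the lowest of the 24 h libraries, and naive ganglia had 17.2 to 19.99 CPM at 72 h. Its change was 0.75 (adjusted p = 0.000249) and did not pass the test of the difference from naive (adjusted p = 0.351). Of 33 tested cytokines and chemokines 4 rose and 1, Areg, fell, a share of 15.2% called that is near the 15.7% of all genes. Besides Csf1, those that rose include Tgfb1, transforming growth factor beta 1, at 1.17 (adjusted p = 0.000938), and Cxcl16, a chemokine, at 1.00 (adjusted p = 0.0333, not called in 5 of 15 alternatives, each without 1 library). For Tgfb1 and Cxcl16 the difference from the naive change did not pass (adjusted p = 0.478 and 0.0926). Il34, another ligand of Csf1r, was the fourth, at 0.51 (adjusted p = 0.0445, groups overlapping, named after its values were seen). Without replicate 3 of either injured group 2 cytokines rose, and 2 fell without that of the 72 h group. Among 20 complement genes 4 rose and 2 fell (30% called). C1qc changed by 1.66 (adjusted p = 0.00219), Cd59a, which protects cells from complement, by 0.38 (adjusted p = 1.8e-05), and Serping1, the C1 inhibitor, by -0.30 (adjusted p = 0.00265). Without replicate 2 of the injured 24 h group, or replicate 1 or 2 of the injured 72 h group, 1 complement gene fell.

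Among glial markers, 5 of 15 genes of myelinating Schwann cells rose and none fell (33.3% called, against 15.7% of all genes). Their median was 0.570 in injured and 0.259 in naive ganglia, and none passed the test of the difference (2 were more positive at an unadjusted p under 0.05). Mal, a myelin proteolipid, had 107, 98.5, 106 and 114 CPM in injured 72 h ganglia, against 61.6, 63.8, 85.99 and 80.05 CPM in injured 24 h ganglia (0.54, adjusted p = 0.000718). Its groups did not overlap, while those of Cldn19, a claudin of myelin (1.72, adjusted p = 0.00152) and Drp2, a dystrophin-related protein of Schwann cells (0.47, adjusted p = 0.0236) overlapped, and Drp2 was not called in 4 of 15 alternatives, each without 1 library. Between 3 and 9 of these markers rose when 1 library was left out: 3 without replicate 2 or 4 of the injured 24 h group or replicate 3 or 4 of the injured 72 h group, and 9 without replicate 3 of the injured 24 h group. Of 19 satellite glia markers 2 rose and 4 fell (31.6% called).

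Part of the vessel wall genes rose in injured and in naive ganglia. Of 12 mural cell markers 5 were higher at 72 h in injured ganglia (41.7% called, against 15.7% of all genes) and 4 in naive ganglia. Their medians were 0.689 and 0.494, and none passed the test of the difference between the conditions (1 was more negative at an unadjusted p under 0.05). Myh11, smooth muscle myosin, had 19.9, 19.97, 30.1 and 27.7 CPM in injured 72 h ganglia, against 10.2, 9.24, 14.4 and 7.13 CPM in injured 24 h ganglia. It had 29.3, 34.4, 28.9 and 30.2 CPM in naive 72 h ganglia, against 12.6, 12.1, 8.79 and 8.99 CPM in naive 24 h ganglia. In both conditions every 72 h library was above every 24 h library, with changes of 1.26 (adjusted p = 1.37e-05) in injured and 1.53 (adjusted p = 3.76e-05) in naive ganglia. Acta2, smooth muscle actin, changed by 1.11 in injured and 0.91 in naive ganglia, and Tagln, transgelin, by 1.12 and 0.76. Mylk, myosin light chain kinase, changed by 0.66 and 0.74. These named markers were higher at 72 h in injured and in naive ganglia, and time and library group cannot be told apart for them.

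Nuclear genes of the mitochondrial respiratory chain fell in part, by small amounts, again in both conditions. Of 59 tested, 24 fell and none rose in injured ganglia (40.7% called, against 15.7% of all genes), and 10 fell in naive ganglia. The median change was -0.188 in injured and -0.200 in naive ganglia, and no member passed the test of the difference (2 were more positive and 1 more negative at an unadjusted p under 0.05). Ndufc2, a subunit of complex I, had 26.2, 27.5, 27.7 and 25.4 CPM in injured 72 h ganglia, against 34.6, 34.9, 32.8 and 39.6 CPM in injured 24 h ganglia (-0.41, adjusted p = 0.000508). The complex I genes Ndufb3 and Ndufb5 and the complex III gene Uqcrh changed by -0.34, -0.36 and -0.32 in injured ganglia. Their values in naive ganglia, -0.20, -0.27 and -0.25, did not pass (adjusted p = 0.156, 0.0862 and 0.0846). The count rested on scaling and on single libraries: 6 fell without replicate 4 of the injured 24 h group, 37 without its replicate 1, 8 without replicate 1 and 13 without replicate 2 of the injured 72 h group, and 2 fell and 1 rose with pan-neuronal scaling.

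Cell cycle genes, which proliferating non-neuronal cells use, gave few calls, with 3 of 45 higher and 2 lower (11.1% called, below the 15.7% of all genes). The median change was 0.198 in injured and 0.316 in naive ganglia. Prc1, a microtubule crosslinker of dividing cells, had 40.8, 42.2, 34.5 and 42.04 CPM in injured 72 h ganglia, against 14.1, 17.1, 15.96 and 17.4 CPM in injured 24 h ganglia (1.31, adjusted p = 1.65e-08, difference from naive 0.99, adjusted p = 0.000359). Top2a, a topoisomerase of cycling cells, rose by 1.48 in injured ganglia (adjusted p = 0.00222), and its naive value of 1.14 did not pass (adjusted p = 0.0509). Stmn1, a stathmin also found in neurons, rose by 0.49 (adjusted p = 3.11e-06), and Tpx2, a spindle assembly factor, fell by 0.60 (adjusted p = 0.00446) with overlapping groups. Without replicate 2 or 4 of the injured 24 h group, or replicate 1 or 2 of the injured 72 h group, 1 fell. The promoter motif TTTGAA, known as the cell cycle homology region and searched on both strands, was in 19 of 37 list promoters (51.4%), against 20.2% of all. Of the members with a promoter sequence, it was held by 2 of 2 that rose and 17 of 35 not called.

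Of the remaining lists, glycolysis (31.8% called), lysosome (29.2%), immediate-early and heat-shock (28%), endothelial (25%), clock (21.1%) and proteasome genes (20%) lay above the 15.7% of all genes. Red cell markers (12.5%), ribosome biogenesis (10%) and ribosomal protein genes (7.14%), and neutrophil and fibroblast markers (6.67% each) lay below it. Ribosomal protein genes had 5 of 70 higher and none lower, ribosome biogenesis genes 3 of 50 higher and 2 lower, and proteasome genes 6 of 35 higher and 1 lower. Lysosome and autophagy genes had 8 of 48 higher and 6 lower, glycolysis genes 2 of 22 higher and 5 lower, immediate-early and heat-shock genes 3 of 25 higher and 4 lower, and clock genes 2 of 19 in each direction. Endothelial markers had 3 of 16 higher and 1 lower, neutrophil and fibroblast markers 1 of 15 higher each, red cell markers 1 of 8 lower, and 8 lymphocyte markers and 4 sex-linked genes no call. The other 7 lymphocyte markers, Cd3e and Cd8a among them, were too low to be tested. The summed level of the 15 neutrophil markers was 51.6 to 181 CPM in injured 72 h, 69.0 to 135 CPM in injured 24 h, 129 to 506 CPM in naive 72 h and 71.2 to 191 CPM in naive 24 h ganglia, and their part in the results was not tested. These small counts moved by more than 1.5 times with single libraries: when any 1 was left out, 2 to 9 proteasome, 2 to 6 ribosomal protein, 1 to 3 ribosome biogenesis, 5 to 7 lysosome, 0 to 1 glycolysis, 2 to 4 immediate-early, 1 to 3 clock, 2 to 6 endothelial and 0 to 2 fibroblast genes were higher, and 3 to 5 lysosome, 4 to 8 glycolysis and 2 to 5 immediate-early genes were lower.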

How the data were processed

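Total RNA libraries (TruSeq) of 16 ganglion samples were deposited by the authors as 1 table of read counts per gene. The submitters' processing notes name bcl2fastq 2.17, the aligner STAR, the read counter HTSeq and the build GRCm38. Strand, annotation release and the handling of reads with several matches are not given in the sources used here. Column names give a time for 24 h only, so the 72 h columns were matched to their samples by elimination. Counts of 48795 genes were filtered (filterByExpr, minimum count 10, minimum total 15), scaled by TMM and fitted with edgeR 4.0.16 (R 4.3.3) with 1 term, the group, over the 16 libraries. Benjamini-Hochberg adjusted p-values under 0.05 were called. List levels are means of log2 CPM (prior count 2). Total counts were 32758978 to 56484541 per library. No 2 libraries of the same group agreed within counting noise, the lowest chi-square per degree of freedom being 9.24. Pairs across groups were not compared in this way. Gene symbols (48349 matched) and coordinates are from the GENCODE M21 annotation.

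Named were, among called genes averaging 2 or more in log2 CPM, with no overlap between the groups, the 12 largest rises and 12 largest falls, the 4 members of each described list and the 4 differences of each sign with the smallest p, and injury neuropeptides and defining markers. Members and lists were chosen with earlier results of these data known. Alternatives were DESeq2 1.42.0, RLE and pan-neuronal scaling, other filters, a fit of the compared libraries alone, a replicate block and leaving out each library. The pipeline was tested on simulated data. A table of repeat windows was not used, and a few genes that the rule names are not reported here.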

Additional observations from a re-analysis of the deposited data

Results flagged for a closer look

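In 17 of 272 groups of 4 libraries examined (named genes and list levels), 1 library lay far from the other 3; chance gives about 5% of such groups. In injured 72 h ganglia, replicate 1 had 5.01 CPM for Casr (others 2.01 to 2.27), 78.1 CPM for Ndufb3 (others 90.1 to 91.1) and 577 CPM for Scn10a (others 489 to 501). Replicate 2 of that group had 204 CPM for Cd59a (others 180.2 to 182), a mean log2 CPM of 7.16 over glycolysis genes (others 7.215 to 7.222) and of 6.74 over lysosome genes (others 6.762 to 6.764), and replicate 3 had 5664 CPM for Tubb3 (others 5260 to 5297). In injured 24 h ganglia, replicate 1 was low in Ecel1 at 1.18 CPM (others 4.16 to 5.09), in Csf1 at 49.3 CPM (others 85.1 to 93.2) and in the level of the regeneration effectors at 5.73 (others 6.12 to 6.18). The same library was high in Olfr920 at 22.5 CPM (others 11.3 to 12.7), in Dnajb9 at 50.4 CPM (others 43.9 to 44.7), in the level of endothelial markers at 4.61 (others 4.08 to 4.16) and in that of the sex-linked genes at 6.02 (others 5.52 to 5.604). Cckar was low in replicate 2 at 26.7 CPM (others 32.6 to 33.5), Csf1r in replicate 3 at 1.36 CPM (others 2.59 to 2.70) and Acta2 in replicate 4 at 4.80 CPM (others 7.42 to 7.72). Without replicate 1 of the injured 24 h group 1547 genes were higher and 1527 lower at 72 h.

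The change from 24 h to 72 h differed between injured and naive ganglia for 62 of the 101 named genes (edgeR's quasi-likelihood test of the difference, adjusted p under 0.05). Values, given for 60 of them, are the log2 change in injured ganglia minus that in naive ganglia. In the neuropeptide list the differences were 3.79 for Crh, 2.95 for Nts, 2.02 for Gal, -0.83 for Bdnf and -0.68 for Adcyap1. For regeneration factors and effectors they were 4.14 for Car3, 3.09 for Ecel1, 1.56 for Lmo7, 0.34 for Smad1, 1.06 for Cacna2d1 and 1.14 for Gap43. Among the other largest rises the differences were 2.95 for Wfdc3, 2.50 for Trp53i11, 2.50 for Draxin, 2.35 for Acvr1c and 2.26 for Loxl2. For cytoskeletal and cell cycle genes they were 0.55 for Stmn2, 0.86 for Tubb2b, 0.54 for Marcks, 0.55 for Tubb3, 0.99 for Prc1, 0.40 for Stmn1 and -0.68 for Tpx2. Among guidance genes the differences were 0.75 for Sema3c, 0.59 for Sema4f, 0.60 for Flrt2 and -0.39 for Sema7a. For channels, receptors and neuronal markers they were -0.72 for Kcna2, -0.44 for Scn4b, -0.53 for Scn8a, -0.70 for Scn10a, 2.03 for Cckar, 1.63 for Gabrg1, -0.82 for Trpa1, 0.73 for Gfra3 and -0.39 for Rbfox3. Among genes of vesicle release the differences were -0.89 for Rph3a, -0.44 for Vamp1, -0.36 for Snap25 and -0.28 for Rab3a. For genes high on the first day they were -3.16 for Areg, -1.65 for Procr, -1.50 for Casr, -1.08 for A2m, -0.86 for Scai and -0.87 for Ugdh. Among interferon genes and DNA or RNA sensors the differences were -1.87 for Ifit1, -0.72 for Ddx58, -0.73 for Stat2, -0.88 for Dtx3l and -2.29 for Aim2. For stress response and cholesterol genes they were 0.36 for Slc7a5, 0.35 for Asns, 0.94 for Hsd17b7, 0.76 for Abca1 and 0.33 for Insig1. Among macrophage and complement genes the differences were 1.73 for C1qa, 1.85 for Csf1r, 0.46 for Cd59a and -0.45 for Serping1. These calls did not all hold under the alternatives: those of Tpx2 were lost in 15 of 22, Slc7a5 in 12, Crh, Rab3a and Sema7a in 11 each, Smad1 in 5 and Rbfox3 in 2. The calls of Asns, Cd59a, Flrt2, Insig1, Marcks and Stmn1 were lost with pan-neuronal scaling only, that of Aim2 only without replicate 4 of the naive 72 h group and that of Ecel1 only without replicate 2 of the naive 24 h group.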

How the results depend on the processing

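In injured ganglia the counts of higher and lower genes were 1775 and 1699 by DESeq2, 1515 and 1495 with RLE scaling, and 1072 to 1547 and 1163 to 1527 with 1 library left out. Pan-neuronal scaling gave 672 lower genes in injured ganglia, 1054 higher and 17 lower genes in naive ganglia, and 223 more positive differences. Naive counts were 614 higher and 334 lower by DESeq2, 783 and 385 with no filter, and 129 to 278 and 25 to 149 with 1 library left out. The difference gave 385 to 591 more positive and 454 to 672 more negative genes with 1 library left out. Why the counts moved was not tested. Of 96 named genes called in injured ganglia, 90 were called in all 15 alternatives. Of the 62 called differences, 47 were called in every alternative run (at most 22). Vip, not called, ranged between -1.06 and 0.13 with 1 library left out, the positive value without replicate 4 of the injured 24 h group.

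Same-numbered injured libraries of the 2 times did not deviate together (correlations -0.033 to 0), those of injured and naive ganglia weakly (0.048 to 0.101 at 72 h, 0.047 to 0.088 at 24 h), with 3 and 4 of 4 libraries correlating best with their own number. The labels do not state a pairing. With the replicate block 1506 genes were higher and 1502 lower in injured ganglia, 351 and 172 in naive ganglia, and 539 and 622 in the difference. For genes of a few CPM, such as Crh, counting error adds to the spread between libraries.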
